A study of Mus musculus with 8 samples.

Results

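Expression of *Epcam*, 5 classical cadherin genes and 3 catenin genes was described across the 4 groups of thymic epithelial cells (TECs) sequenced in bulk. The 9 genes were chosen by name as epithelial adhesion genes, with earlier results of these data known. Of these, *Cdh4* was added because it had been seen to be high in freshly extracted TECs. They are 9 of the 56923 genes in the count files, and every member was found and passed the filter on low counts. The comparisons of *Cdh4* with *in vivo* TECs are therefore given as values without a test.

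All libraries came from wild-type (WT) cells, sorted as EpCAM-positive from C57BL/6J thymi at embryonic day E16.5. By the paper's methods, sorted cells were collected in medium with serum and the compound thiazovivin. Thiazovivin was also in the organoid medium for the first 2 days, and the paper does not state separately whether 2D cultures received it. *In vivo* TECs were lysed straight after sorting, and the other groups were cultured in a defined TEC medium with FGF7, an epithelial growth factor made by thymic mesenchyme. 2D-cultured TECs grew on laminin-coated plates until they formed a confluent monolayer after 3 days, and organoids grew in Matrigel, a basement membrane gel, for 3 days (D3) or 7 days (D7). Each group had 2 libraries, which the labels call biological replicates, and each library held between 5084715 and 7612532 counts. The paper's figure legend gives 2 mice per condition, and neither it nor the labels say whether the replicates came from separate litters or sorts. The p-values rest on a spread between libraries that is shared across genes and groups. Whether that spread covers differences between litters or sorts is not known.

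The classical cadherins are transmembrane proteins that bind the same or a related cadherin on a neighbouring cell in a calcium-dependent way. Inside the cell, β-catenin binds the cadherin tail and α-catenin links it to actin, while p120-catenin binds nearer the membrane and keeps the cadherin from being taken up and degraded. EpCAM is a separate epithelial adhesion protein that does not need calcium, and its antibody is the usual reagent for sorting TECs. β-catenin also carries the canonical Wnt signal to the nucleus.

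The RefSeq promoter table used here (GRCm38.p6) matched 4 of the 9 members at 6 start sites, namely *Epcam*, *Cdh6*, *Ctnnb1* and *Ctnnd1*. The 250 bases before each start were searched on both strands for the E-box letters CACCTG and CAGGTG, which are each other's reverse complement and are the letters that repressors of the Snail and Zeb families bind. The promoters of *Epcam* and *Cdh6* are shown because both genes were lower *in vivo* than in each culture and because they differ in this motif. Capitals mark the E-box letters. The *Epcam* sequence is chr17:87635729-87635978 on the plus strand, and that of *Cdh6* is chr15:13173676-13173925 on the minus strand.
Epcam: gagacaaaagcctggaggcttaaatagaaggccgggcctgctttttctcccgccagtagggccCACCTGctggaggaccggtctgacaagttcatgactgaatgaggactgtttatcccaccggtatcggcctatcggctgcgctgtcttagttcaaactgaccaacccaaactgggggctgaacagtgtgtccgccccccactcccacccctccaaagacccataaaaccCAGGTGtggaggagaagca
Cdh6: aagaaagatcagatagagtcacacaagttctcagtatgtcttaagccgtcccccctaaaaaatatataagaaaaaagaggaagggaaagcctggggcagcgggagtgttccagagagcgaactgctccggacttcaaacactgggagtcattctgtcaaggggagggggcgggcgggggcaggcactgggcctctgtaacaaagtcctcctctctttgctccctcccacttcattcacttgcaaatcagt
The *Epcam* promoter held 2 E-boxes, beginning 187 and 19 bases before the start, and the *Cdh6* promoter held no match. The same letters occurred at least once in 17.2% of the 32851 promoters in the table and 2 or more times in 2.06%. No match was found at either start of *Ctnnb1* or *Ctnnd1*. These matches describe letters in a window and are not evidence of binding.

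Levels are given as CPM, the counts of a gene relative to the library total, scaled by TMM factors, and they are compared for a gene across groups and not between genes. Differences are log2 fold changes from edgeR's quasi-likelihood test on 14504 genes, with Benjamini-Hochberg adjusted p-values and a threshold of 0.05. The standard error (SE) given with them is not returned by that test. It was taken as the absolute log2 fold change divided by the square root of the test's F value. In genes with few counts it is only approximate. With 2 libraries a group, an exact permutation test of a single gene could not give a p below 0.333, so every call rests on the spread that edgeR shares across genes and groups. In these bulk samples, fewer cells of a type and less RNA per cell cannot be told apart.

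The 4 groups differed first in 3 of the abundant members. *Ctnnb1*, also abundant, differed little between *in vivo* and 2D (log2 fold change -0.11, edgeR adjusted p = 0.552). *Epcam*, *Cdh1* and *Ctnna1* were each highest in 2D-cultured TECs, and the 2D level of these 3 genes was 3.37 to 3.88 times that *in vivo*. *Cdh2* was found mainly in organoids, *Cdh4* mainly *in vivo*, and *Cdh6* in all 3 kinds of culture and barely *in vivo*.

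**Figure D1:**
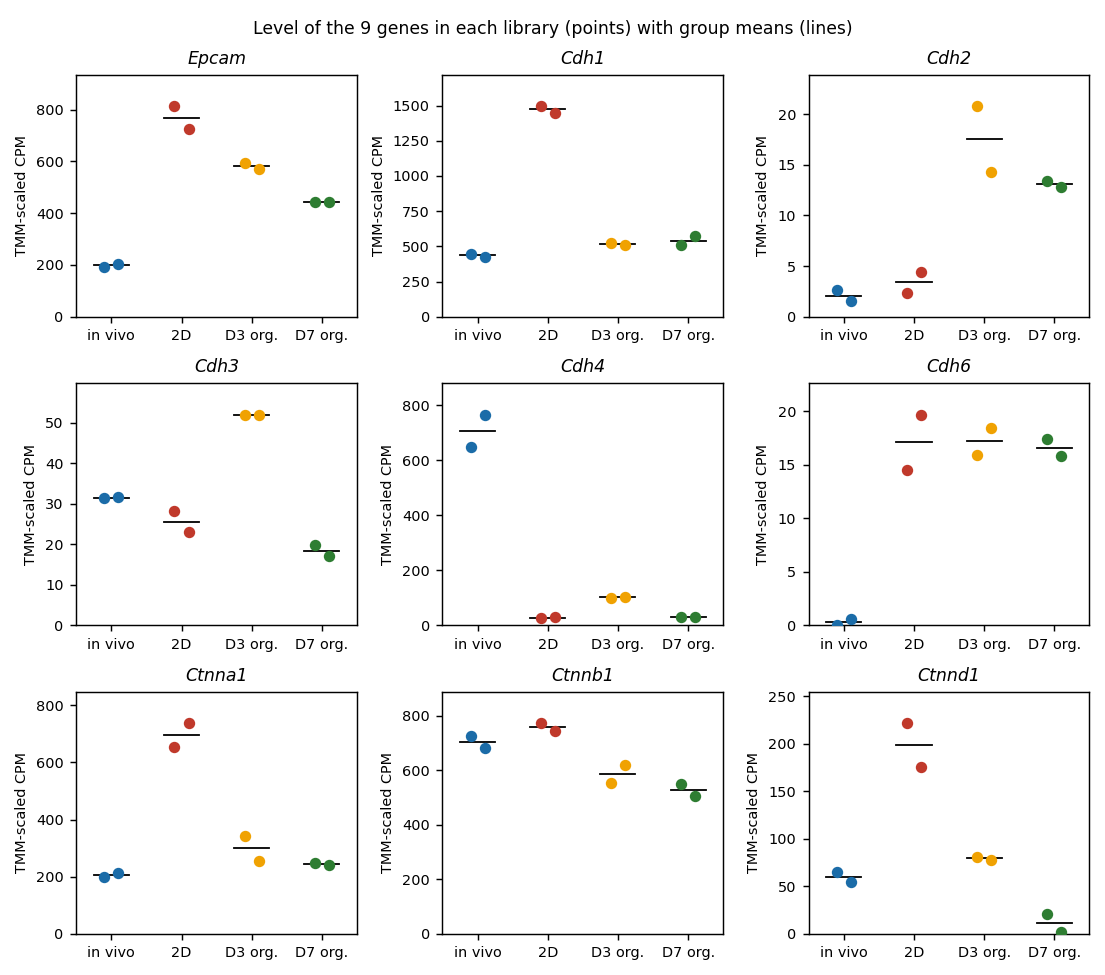
Level of each of the 9 genes, in TMM-scaled CPM on an axis from 0, in the 8 libraries (points) with the mean of each group (lines). The 2 libraries of a group lie close together for most genes, with *Ctnnd1* in D7 organoids (20.8 and 2.17 CPM) as the exception described in the text.

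*Epcam*, on chromosome 17 (GRCm39, 87943407 to 87958557), had 192 and 205 CPM *in vivo*, 814 and 724 CPM in 2D, 595 and 570 CPM in D3 organoids, and 442 and 442 CPM in D7 organoids. The groups did not overlap, and the order from high to low was 2D, D3, D7 and *in vivo*. *Epcam* was 3.88-fold lower *in vivo* than in 2D (log2 fold change -1.95, SE 0.144, edgeR adjusted p = 7.49e-09). It was 2.94-fold lower *in vivo* than in D3 organoids (adjusted p = 2.19e-07) and 2.23-fold lower than in D7 organoids (adjusted p = 6.84e-06). D7 organoids had 1.74-fold less than 2D (adjusted p = 0.000175). Of the neighbours in this order, D3 organoids lay 1.32-fold below 2D (adjusted p = 0.0297), a call lost in 5 of 17 alternative settings, among them the omission of 2D replicate 1 (adjusted p = 0.166) or D3 replicate 2 (adjusted p = 0.112). The D7 level was 1.32-fold below D3, with an adjusted p of 0.051 that missed the threshold and passed it in 9 of 17 settings, among them the omission of D3 replicate 2. EpCAM protein was the gate for the starting cells of every group, so all 4 groups descend from cells that carried it.

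*Cdh1* encodes E-cadherin, the main cadherin of epithelia, and lies on chromosome 8 (107329941 to 107396880). It had 448 and 426 CPM *in vivo*, 1496 and 1450 CPM in 2D, 522 and 506 CPM in D3 organoids, and 507 and 571 CPM in D7 organoids. The 2D libraries stood apart, and the other 3 groups lay within 426 to 571 CPM. *Cdh1* was 3.37-fold lower *in vivo* than in 2D (log2 fold change -1.75, SE 0.14, edgeR adjusted p = 2.11e-08). D3 organoids were 2.87-fold below 2D (adjusted p = 1.62e-07), and D7 organoids were 2.74-fold below it (adjusted p = 2.29e-07). The *in vivo* level was 1.23-fold below D7 organoids (log2 fold change -0.30, SE 0.137, adjusted p = 0.0986) and 1.18-fold below D3 organoids (log2 fold change -0.24, SE 0.137, adjusted p = 0.224), and neither difference passed the threshold. D3 and D7 organoids overlapped. All of these calls against 2D held in each of the 17 alternative settings.

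*Cdh3* encodes P-cadherin, which marks basal layers of stratified epithelia, and is the upstream neighbour of *Cdh1* on the same strand of chromosome 8, 46 kb away. Its pattern was not that of *Cdh1*. *Cdh3* had 31.5 and 31.6 CPM *in vivo*, 28.2 and 23.0 CPM in 2D, 52.1 and 51.9 CPM in D3 organoids, and 19.7 and 17.0 CPM in D7 organoids. The D3 libraries were the highest and the D7 libraries the lowest, with no overlap between groups. D3 organoids had 2.03-fold more than 2D (log2 fold change 1.02, SE 0.21, edgeR adjusted p = 0.000919), and D7 organoids had 2.81-fold less than D3 (log2 fold change -1.49, SE 0.213, adjusted p = 0.000153). *In vivo* TECs lay 1.65-fold below D3 organoids (adjusted p = 0.0141) and 1.71-fold above D7 organoids (adjusted p = 0.00996). The first of these calls was lost without D3 replicate 1 (adjusted p = 0.06) and the second without D7 replicate 2 (adjusted p = 0.0965). *In vivo* against 2D (adjusted p = 0.276) and D7 against 2D (adjusted p = 0.0888) did not pass.

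*Cdh2* encodes N-cadherin, the cadherin of neural and many mesenchymal cells, and lies on chromosome 18. It had 15 and 11 counts *in vivo* and 13 and 24 counts in 2D, against 123 and 102 counts in D3 organoids and 108 and 65 counts in D7 organoids. As CPM these were 2.61 and 1.55 *in vivo*, 2.36 and 4.46 in 2D, 20.8 and 14.3 in D3, and 13.4 and 12.9 in D7. Both days of organoids lay above both other groups, and *in vivo* and 2D overlapped. *Cdh2* was 5.11-fold higher in D3 organoids than in 2D (log2 fold change 2.35, SE 0.421, edgeR adjusted p = 0.000263) and 3.84-fold above 2D at D7 (adjusted p = 0.00126). Against *in vivo* TECs it was 8.46-fold higher in D3 organoids (adjusted p = 3.99e-05) and 6.36-fold higher in D7 organoids (adjusted p = 0.000167). The differences between the days (adjusted p = 0.479) and between *in vivo* and 2D (adjusted p = 0.257) did not pass. The summed level of 8 mesenchyme markers was 22.1 and 18.3 CPM in D3 organoids, against 50.0 and 49.5 CPM *in vivo*, 36.4 and 32.5 CPM in 2D, and 80.9 and 71.4 CPM in D7 organoids. Of these markers, *Pdgfra* had 0 to 8 counts in every library. The markers did not share 1 order, since *Dcn* averaged 5.23 CPM in D3 and 52.3 CPM in D7, while *Col1a2* averaged 11.1 CPM in D3 and 6.34 CPM in D7. Their part in the organoid level of *Cdh2* was not tested.

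*Cdh4* encodes R-cadherin, a close relative of N-cadherin first described in retina, and lies on chromosome 2 (179084201 to 179541166). It had 3732 and 5430 counts *in vivo*, 148 and 152 counts in 2D, 585 and 744 counts in D3 organoids, and 229 and 159 counts in D7 organoids. In CPM, the *in vivo* libraries were at 650 and 766, those of 2D at 26.9 and 28.2, those of D3 at 98.9 and 104, and those of D7 at 28.4 and 31.4. The *in vivo* mean was 25.7 times the 2D level in the fit, 6.98 times the D3 level and 23.7 times the D7 level, which are the values for which the gene was chosen. Comparisons among the cultures were not part of that choice. D3 organoids had 3.68-fold more *Cdh4* than 2D (log2 fold change 1.88, SE 0.166, edgeR adjusted p = 1.01e-07), and D7 organoids had 3.4-fold less than D3 (log2 fold change -1.77, SE 0.163, adjusted p = 1.76e-06). D7 and 2D differed by 1.08-fold (log2 fold change 0.11, SE 0.171, adjusted p = 0.62). The stain for the sort included CD45, PDGFRα, PDGFRβ, CD31 and Ter119, markers of blood, mesenchymal, endothelial and erythroid cells. Thymocyte transcripts were counted in the *in vivo* libraries. The summed level of 8 thymocyte markers was 661 and 292 CPM *in vivo* and between 2.36 and 9.29 CPM in the cultures, and *Cd8a*, the marker of later thymocytes, had 2 counts at most in any library. The parathyroid markers *Gcm2*, *Pth* and *Chga* summed to 127 and 91.4 CPM *in vivo* against 1.86 to 14.4 CPM in the cultures, with *Gcm2* at 2 and 3 counts *in vivo* and 0 elsewhere. Their part in the *in vivo* level of *Cdh4* and of the other members was not tested.

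*Cdh6* encodes K-cadherin, the only type II classical cadherin among the members, which is known from developing kidney. It had 0 and 4 counts *in vivo*, 80 and 106 counts in 2D, 94 and 132 counts in D3 organoids, and 140 and 80 counts in D7 organoids. The cultures overlapped one another at 14.5 to 19.7 CPM, and the *in vivo* libraries were at 0 and 0.564 CPM. *Cdh6* was lower *in vivo* than in 2D (log2 fold change -5.70, SE 0.558, edgeR adjusted p = 2.72e-07), D3 organoids (-5.71, adjusted p = 4.56e-07) and D7 organoids (-5.66, adjusted p = 5.78e-07). With so few counts *in vivo*, the size of these changes depends on the prior count and on the library. Against 2D the log2 fold change was -4.87 without *in vivo* replicate 1 and -9.71 without *in vivo* replicate 2, and the call held in both. No difference among the cultures passed, with edgeR adjusted p of 0.936 for D7 against 2D, 0.992 for D3 against 2D and 0.942 for D7 against D3, each with an SE of the log2 fold change between 0.335 and 0.338.

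*Ctnnb1* encodes β-catenin and lies on chromosome 9 (120757422 to 120789579). It had 724 and 681 CPM *in vivo*, 773 and 744 CPM in 2D, 553 and 619 CPM in D3 organoids, and 549 and 506 CPM in D7 organoids. The order was 2D, *in vivo*, D3 and D7, and the whole span of group means, 759 to 528 CPM, was narrow beside those of the other members. The difference between *in vivo* and 2D did not pass the threshold (log2 fold change -0.11, SE 0.138, edgeR adjusted p = 0.552), although their libraries did not overlap. D7 organoids were 1.44-fold below 2D (log2 fold change -0.52, SE 0.139, adjusted p = 0.00536) and 1.33-fold below *in vivo* (adjusted p = 0.0282). The second of these calls was lost in 5 of 17 alternative settings, among them the omission of either *in vivo* or either D7 library. D3 organoids were 1.29-fold below 2D (adjusted p = 0.0422), a call that was lost in 11 of 17 settings, among them the omission of any library except D3 replicate 2. The call of D7 against 2D was lost without D7 replicate 2 (adjusted p = 0.0634).

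*Ctnna1* encodes αE-catenin, the actin-binding catenin of epithelia, and lies on chromosome 18. It had 197 and 213 CPM *in vivo*, 653 and 737 CPM in 2D, 344 and 254 CPM in D3 organoids, and 248 and 240 CPM in D7 organoids. The 2D libraries were the highest and the *in vivo* libraries the lowest, and the groups did not overlap, although the D3 libraries differed 1.35-fold from each other. *Ctnna1* was 3.39-fold lower *in vivo* than in 2D (log2 fold change -1.76, SE 0.164, edgeR adjusted p = 1.4e-07). D3 organoids were 2.33-fold below 2D (adjusted p = 1.18e-05) and D7 organoids 2.85-fold below it (adjusted p = 9.86e-07). *In vivo* TECs were 1.46-fold below D3 organoids (log2 fold change -0.54, adjusted p = 0.0176), a value that became -0.31 without D3 replicate 1 and then missed the threshold (adjusted p = 0.2), and the call was also lost without *in vivo* replicate 1 (adjusted p = 0.108). *In vivo* against D7 (adjusted p = 0.245) and D7 against D3 (adjusted p = 0.224) did not pass. The log2 fold change of D7 against D3 was -0.29 with all libraries and -0.56 without D3 replicate 2.

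*Ctnnd1* encodes p120-catenin and lies on chromosome 2 (84425959 to 84489326). It had 373 and 386 counts *in vivo*, 1219 and 947 counts in 2D, 477 and 558 counts in D3 organoids, and 168 and 11 counts in D7 organoids. In CPM, these were 64.9 and 54.4 *in vivo*, 222 and 176 in 2D, 80.6 and 78.0 in D3, and 20.8 and 2.17 in D7. Both D7 libraries were below every other library, but they were 9.58-fold apart. Of the 8750 genes with a mean of at least 10 CPM in D7 organoids, *Ctnnd1* and *Scgb3a2*, a gene chosen after its values were seen, had a gap that large or larger, and the median gap was 1.13-fold.

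The size of the D7 difference in *Ctnnd1* therefore rests on which D7 library is used, and its direction does not. D7 organoids were 16-fold below 2D (log2 fold change -4.00, SE 0.453, edgeR adjusted p = 1.78e-06), 6.38-fold below D3 (log2 fold change -2.67, adjusted p = 0.000505) and 4.79-fold below *in vivo* (adjusted p = 0.000753). Without D7 replicate 2, the log2 fold changes were -3.25 against 2D and -1.92 against D3, and that of *in vivo* over D7 was 1.51. Without D7 replicate 1 they were -6.50, -5.17 and 4.76, and all 6 values stayed past the threshold. *In vivo* TECs were 3.33-fold below 2D (adjusted p = 0.002) and D3 organoids 2.51-fold below 2D (adjusted p = 0.0126). Under DESeq2's Wald test these 2 calls were lost, with adjusted p of 0.136 and 0.287. The D3 call was also lost without 2D replicate 1 and without either D3 library. *In vivo* and D3 differed by 1.33-fold (log2 fold change -0.41, SE 0.395, adjusted p = 0.486). The annotated gene *Gm28635*, which overlaps *Ctnnd1* on the same strand, had 0 counts in all libraries.

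**Figure D2:**
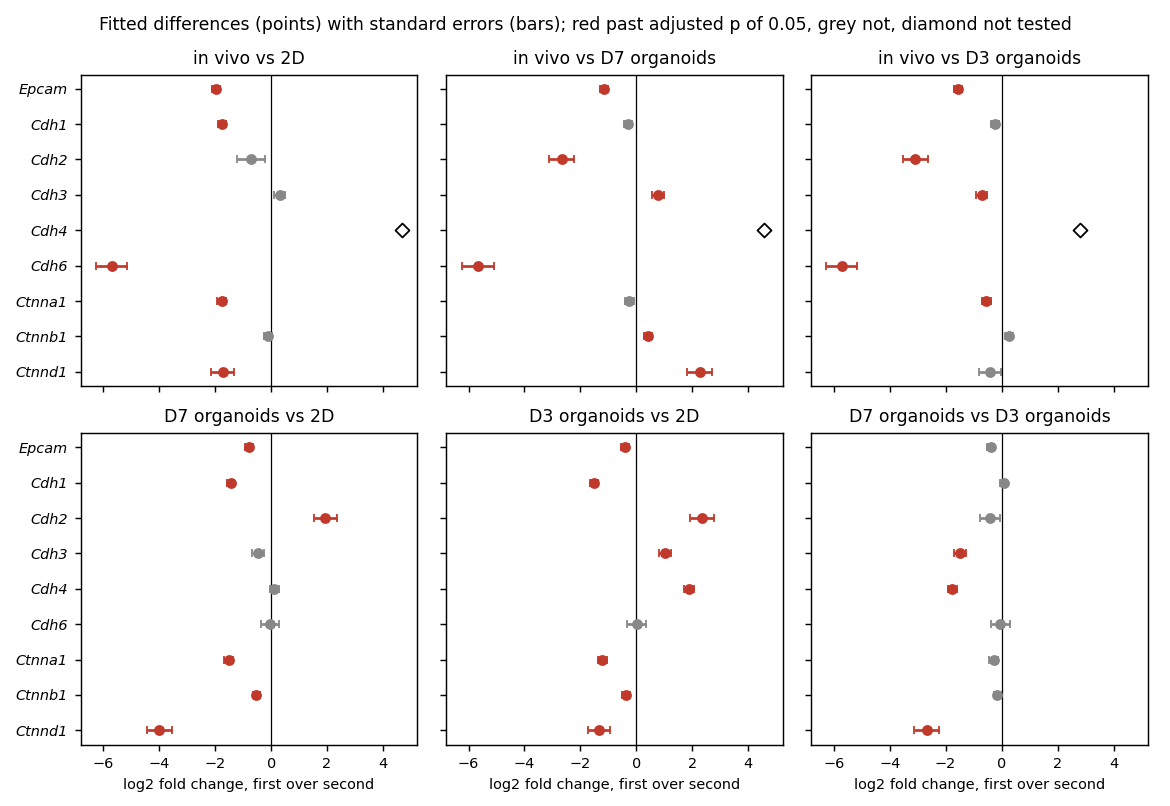
Log2 fold changes (first group over second) of the 9 genes in the 6 comparisons, with SE as bars. Red points passed an edgeR adjusted p of 0.05, grey points did not, and white diamonds are the untested comparisons of *Cdh4* with *in vivo* TECs. *Cdh6* lies near -5.7 in each comparison with *in vivo*, and *Cdh2* lies to the left in the comparisons of *in vivo* with organoids and to the right in those of organoids with 2D.

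Counted over the members, *in vivo* against 2D gave 5 calls of 8 genes tested, all lower *in vivo*, where 41.6% of all genes tested were called, 21.7% higher and 19.9% lower. D3 organoids against 2D gave 8 calls of 9, with *Cdh2*, *Cdh3* and *Cdh4* higher and 5 lower, beside 38.3% of all genes (19.3% higher and 19.1% lower). D7 organoids against 2D gave 6 of 9, with *Cdh2* higher and 5 lower, beside 45.5% (24.4% higher and 21.1% lower). *In vivo* against D3 gave 5 of 8, all lower *in vivo*, beside 28.2% of all genes, 14.0% higher and 14.1% lower. *In vivo* against D7 gave 6 of 8, with *Cdh3*, *Ctnnb1* and *Ctnnd1* higher *in vivo* and 3 lower, beside 34.8% of all genes, 16.8% called higher *in vivo*. D7 against D3 gave 3 of 9, *Ctnnd1*, *Cdh3* and *Cdh4*, all lower at D7, beside 20.8% of all genes, 10.9% higher and 9.91% lower. The members and the gene lists below were chosen with earlier results of these data known. Counts of calls therefore describe the chosen genes, and the shares of all genes are given for scale and not as a test.

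Medians over the members leave out *Cdh4* in the comparisons with *in vivo* TECs and include it in the others. The median log2 fold change of the members was -1.75 for *in vivo* against 2D, where the median over all genes was 0.06. It was -0.37 for D3 and -0.52 for D7 against 2D, where all genes had medians of 0.03 and 0.10. For *in vivo* against D3 and D7 it was -0.63 and -0.28, beside 0.01 and -0.01 for all genes. For D7 against D3 it was -0.40, beside 0.06 for all genes. Each group enters 3 of these comparisons, so they share libraries and their values are given side by side. Without TMM scaling, the median over all genes moved by 0.18 for *in vivo* against 2D, 0.20 for D7 against 2D and 0.26 for D3 against 2D, and calls higher in the first group rose from 52.2% to 63.1%, from 53.7% to 65.2% and from 50.3% to 67.2% of all calls. The directions of all member calls in these 3 comparisons were kept without TMM scaling, although *Epcam* and *Ctnnb1* in D3 against 2D and *Ctnnb1* in D7 against 2D no longer passed.

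Within a library, the ratio of a catenin to *Cdh1* is independent of the library scaling, and it can be compared across libraries even though it says nothing of the relative number of molecules. The ratio of *Ctnnb1* to *Cdh1* CPM was 1.62 and 1.60 *in vivo*, 0.517 and 0.513 in 2D, 1.06 and 1.22 in D3 organoids, and 1.08 and 0.887 in D7 organoids. It was lowest in 2D, highest *in vivo*, and did not overlap between these groups and the organoids. The ratio of *Ctnna1* to *Cdh1* stayed between 0.421 and 0.659 across the 8 libraries. That of *Ctnnd1* to *Cdh1* was between 0.121 and 0.155 in the 6 libraries other than D7, and it was 0.0411 and 0.00381 in the D7 libraries. *Epcam* relative to *Cdh1* was 0.428 to 0.544 in the *in vivo* and 2D libraries, and 0.775 to 1.14 in the organoid libraries. These ratios are descriptions without a test.

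Reads on 18 classical cadherin genes, of types I and II, were summed to see how the members' parts of the repertoire changed. The sum was 1356 ± 81.8 CPM *in vivo* (SD, n = 2), 1608 ± 41.2 CPM in 2D, 987 ± 17.6 CPM in D3 organoids and 831 ± 6.81 CPM in D7 organoids. *Cdh1* took 34.5% and 30.1% of these reads *in vivo*, 91.4% and 91.9% in 2D, 52.2% and 52.0% in D3, and 61.3% and 68.3% in D7. *Cdh4* took 50.1% and 54.2% *in vivo*, 1.64% and 1.79% in 2D, 9.89% and 10.7% in D3, and 3.44% and 3.76% in D7. Thus the 2D libraries had nearly all their cadherin reads on *Cdh1*, and the *in vivo* libraries had most of theirs on *Cdh1* and *Cdh4*. The *in vivo* share of *Cdh4* restates the level for which that gene was chosen, and it lowers the *in vivo* shares of the other genes. These are shares of reads and not of molecules. *Cdh3*, *Cdh2* and *Cdh6* took 1.46% to 5.32%, 0.11% to 2.08% and 0 to 2.1% across the 8 libraries.

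**Figure D3:**
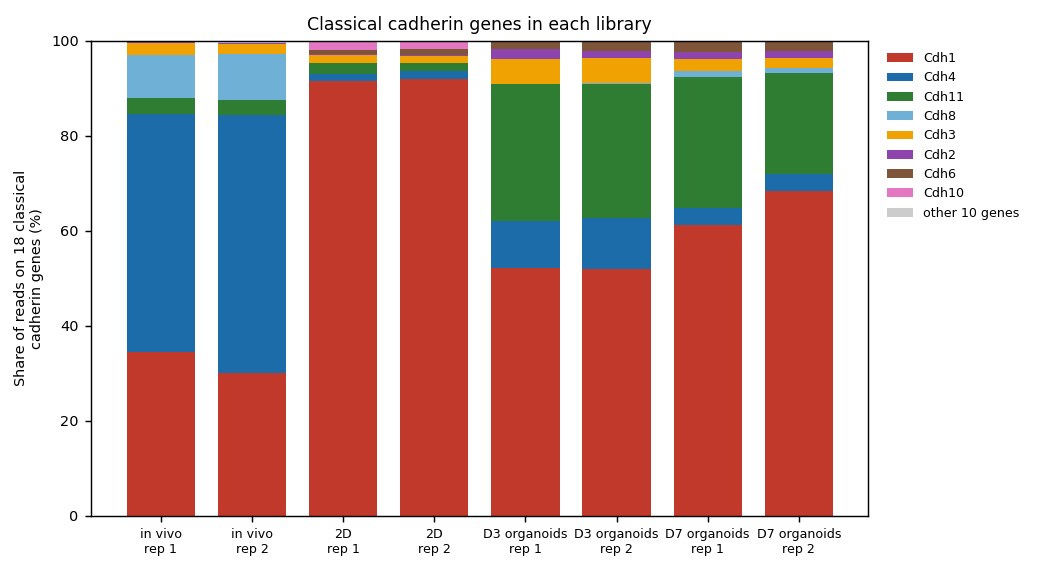
Share of the reads on 18 classical cadherin genes, in percent, in each library, with the 5 member cadherins, *Cdh8*, *Cdh10* and *Cdh11* in colour and the other 10 genes in grey. *Cdh1* fills 91.4% and 91.9% of the 2D bars, *Cdh4* 50.1% and 54.2% of the *in vivo* bars, and *Cdh11* 21.1% to 28.9% of the organoid bars.

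Of the 13 other classical cadherins, 3 passed the filter on low counts. *Cdh11*, a type II cadherin best known from mesenchyme and bone, had 43.3 and 46.7 CPM *in vivo*, 35.6 and 25.1 CPM in 2D, 288 and 275 CPM in D3 organoids, and 228 and 177 CPM in D7 organoids. It was higher in D3 organoids than in 2D (log2 fold change 3.21, SE 0.2, edgeR adjusted p = 1.5e-09) and higher in D7 organoids than in 2D (2.74, adjusted p = 6.8e-09). The part of the mesenchyme markers given beside *Cdh2* in this result was not tested. *Cdh8*, a type II cadherin of the nervous system, had 119 and 135 CPM *in vivo*, 3 counts at most per library in 2D, 0.17 and 2.24 CPM in D3, and 10.9 and 9.69 CPM in D7. It was higher *in vivo* than in D7 organoids (3.61, SE 0.31, adjusted p = 1.3e-07). *Cdh24* had edgeR adjusted p-values of 0.18 to 0.89 over the 6 comparisons, and its log2 fold change was 2.01 with an SE of 1.15 for *in vivo* against 2D. *Cdh10*, chosen after its values were seen, had 172 and 143 counts in 2D and 3 counts at most in every other library, which kept it below the filter. *Cdh5*, the endothelial cadherin, had 0 counts in all 8 libraries.

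The other catenins and actin linkers held 11 tested genes of 13. *In vivo* against 2D, 2 were higher and 4 lower, beside 21.7% and 19.9% of all genes, with a median log2 fold change of -0.09. *Vcl*, which encodes vinculin, a protein recruited to α-catenin under tension, was 399 and 422 CPM in 2D and between 27.1 and 55.1 CPM in the other 6 libraries. Its log2 fold change was -3.17 *in vivo* against 2D (SE 0.17, edgeR adjusted p = 2.1e-10) and -3.73 for D7 against 2D (adjusted p = 6.2e-11). *Afdn*, whose product afadin ties nectins to actin, was also lower *in vivo* than in 2D (-2.32, adjusted p = 7.2e-09), as were *Jup*, the β-catenin relative plakoglobin (-1.24, adjusted p = 1.6e-05), and *Shroom3* (-1.42, adjusted p = 0.00086). *Plekha7* (1.15, adjusted p = 0.00035) and *Ctnnd2* (1.05, adjusted p = 0.0012) were the genes higher *in vivo*. *Jup*, *Shroom3*, *Plekha7* and *Ctnnd2* are named after their values were seen. *Lima1* and *Pkp4* did not pass *in vivo* against 2D, with log2 fold changes of -0.01 and 0.15. In D3 and D7 organoids against 2D, 6 and 5 of the 11 were lower and 1 and 2 higher, beside 19.1% and 21.1% of all genes called lower and 19.3% and 24.4% called higher.

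*Ctnna2*, the α-catenin gene of neurons, and *Ctnna3*, that of heart and testis, were below the filter and are named after their values were seen. *Ctnna2* had 121 and 235 counts *in vivo* and *Ctnna3* had 60 and 63, against 0 in both 2D libraries. Taking a floor of 3 counts per library, the *in vivo* levels were at least 49.2-fold and at least 17.5-fold higher than in 2D. In the organoid libraries each had 3 counts at most.

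The nectins, adhesion proteins that share the junction with cadherins, were all tested. *In vivo* against 2D, *Nectin1* was higher (log2 fold change 0.98, edgeR adjusted p = 0.002), and *Nectin2* (-3.34, adjusted p = 1.4e-09), *Nectin4* (-4.65, adjusted p = 1.3e-09) and *Pvr* (-2.37, adjusted p = 1.4e-05) were lower. *Nectin3* differed by -0.25 with an SE of 0.21. *Pvr* is named after its values were seen. *Nectin2*, *Nectin4* and *Pvr* were also lower in D3 and in D7 organoids than in 2D, by -1.88 and -1.21 for *Nectin2* and by -2.84 and -2.59 for *Nectin4*. Among the 9 genes of cadherin processing and turnover, 4 were called *in vivo* against 2D, all lower *in vivo*, beside 41.6% of all genes called and 19.9% called lower. *Furin*, the protease that removes the cadherin propeptide, had a log2 fold change of -3.23 (SE 0.18, adjusted p = 2.1e-10), and *Adam10*, which sheds the E-cadherin ectodomain, had -0.65 (adjusted p = 0.008). *Arhgap35* and *Psen2* were the others, and *Psen2* is named after its values were seen. In D3 organoids *Furin* was lower (-2.45) and *Adam10* higher (0.53) than in 2D.

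Partners of EpCAM, proteins that bind it, share its membrane domains or cleave it, were a further list. All 8 genes, each of them tested, were lower *in vivo* than in 2D with edgeR, with a median log2 fold change of -2.77, beside 19.9% of all genes called lower. *Cldn7*, the claudin that binds EpCAM, had 65.5 and 70.9 CPM in 2D and between 0.35 and 13.3 CPM elsewhere, with -5.60 *in vivo* against 2D (SE 0.45, adjusted p = 2.5e-08). *Cd44*, *Cd9*, *Spint1*, *Fhl2* and *St14*, which encodes the membrane protease matriptase, were lower *in vivo* as well, by -2.95, -2.23, -2.32, -8.63 and -3.71. *Fhl2* had 0 and 6 counts *in vivo* and *Cldn7* had 2 and 16, so the sizes of both changes are uncertain. D7 organoids were lower than 2D in 7 of the 8 and D3 organoids in 6, with medians of -2.15 and -1.75, beside 21.1% and 19.1% of all genes called lower and medians of 0.10 and 0.03 over all genes. *Cd44* was 499 and 429 CPM in 2D, 55.1 and 47.7 CPM in D3, and 12.4 and 16.0 CPM in D7, and it was higher *in vivo* than in D7 (2.10, adjusted p = 2.1e-07).

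**Figure D4:**
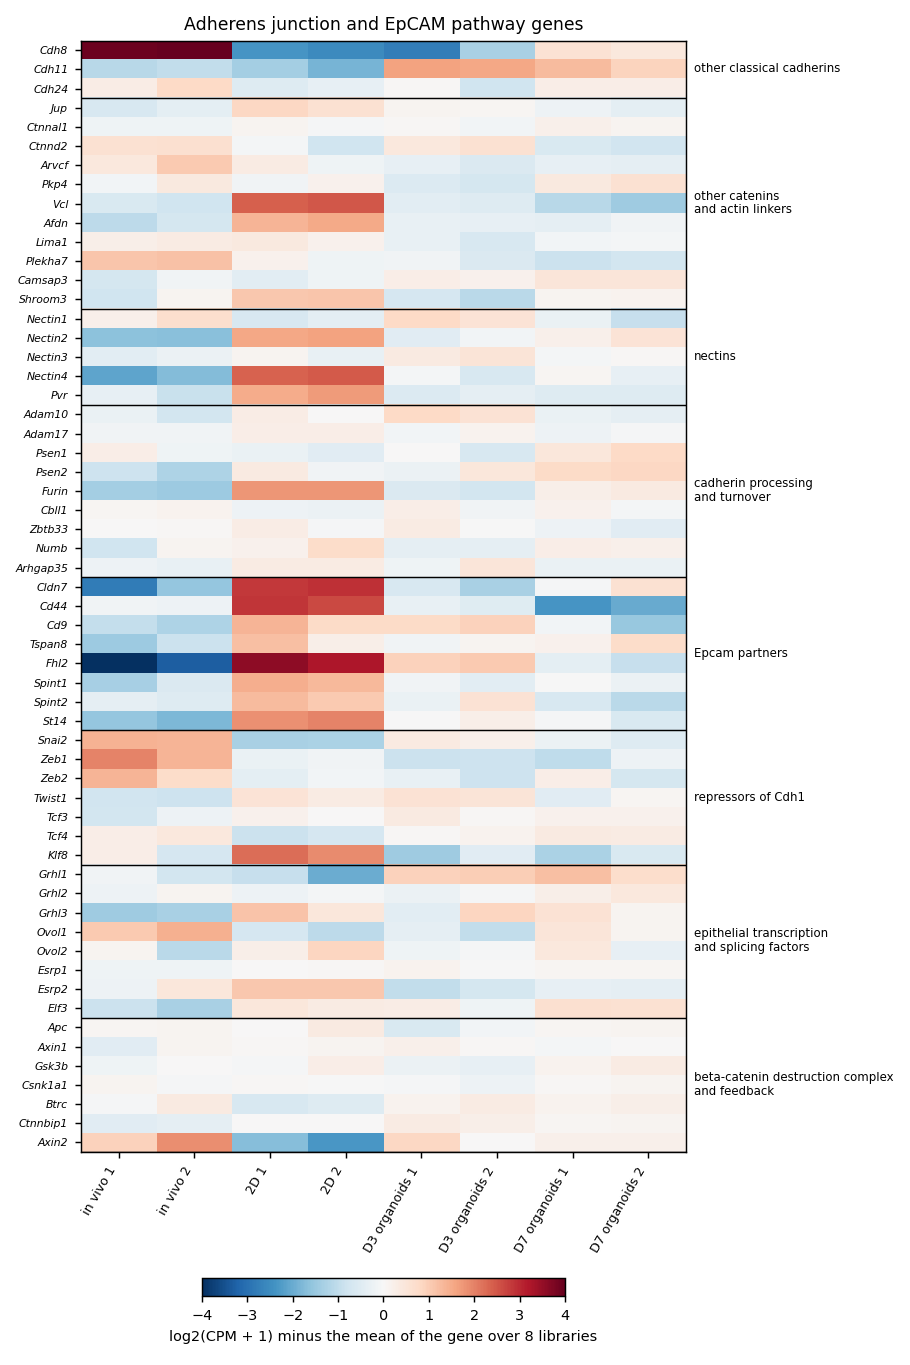
Level of each tested gene of the 8 pathway lists in the 8 libraries, as log2(CPM + 1) minus the mean of the gene over the libraries, on a colour scale cut at -4 and 4. The *Epcam* partners, *Vcl*, *Nectin2*, *Nectin4* and *Furin* are red in the 2D columns, and *Cdh8* and *Snai2* are red in the *in vivo* columns.

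Known repressors of *Cdh1* were mixed. *In vivo* against 2D, 3 of 7 tested genes were higher and 2 lower, beside 21.7% and 19.9% of all genes. *Snai2*, which encodes the repressor SLUG, had 258 and 253 CPM *in vivo*, 39.3 and 39.9 CPM in 2D, 126 and 113 CPM in D3 organoids, and 82.6 and 68.6 CPM in D7 organoids. The 2D libraries were the lowest and the *in vivo* libraries the highest, with no overlap between groups. *Snai2* was higher *in vivo* than in 2D (log2 fold change 2.69, SE 0.17, edgeR adjusted p = 1.2e-09), and higher than 2D in D3 (1.59, adjusted p = 8.3e-07) and D7 organoids (0.94, adjusted p = 0.00022). *Tcf4* was higher *in vivo* than in 2D (1.10, adjusted p = 7.4e-06), as was *Zeb1* (2.52, adjusted p = 0.016), while *Tcf3* (-0.55, adjusted p = 0.033) and *Klf8* (-2.83, adjusted p = 0.016) were lower. *Zeb1* and *Klf8* are named after their values were seen. *Zeb1* had 9.92 and 6.06 CPM *in vivo* and at most 1.49 CPM in the cultures. The part of the thymocyte transcripts counted *in vivo* in the levels of these repressors was not tested.

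Genes for epithelial transcription and splicing factors were mixed as well. Of 8 tested, 2 were higher and 3 lower *in vivo* than in 2D, beside 21.7% and 19.9% of all genes. *Esrp1*, an epithelial splicing factor, had log2 fold changes between -0.25 and 0.05 in the 6 comparisons, with an SE of 0.15 and adjusted p-values of 0.2 to 0.96. *Grhl2*, an activator of *Cdh1* transcription, had 0.10 *in vivo* against 2D (SE 0.18) and 0.46 in D7 organoids against 2D (edgeR adjusted p = 0.049). *Grhl1* was higher in D3 and D7 organoids than in 2D, by 2.44 and 2.47 (adjusted p = 1.6e-05 and 1.2e-05). Of 7 tested genes of the β-catenin destruction complex and its feedback, 1 was higher and 1 lower *in vivo* than in 2D, beside 41.6% of all genes called. These were *Axin2*, a target of Wnt signalling, and *Ctnnbip1*, both named after their values were seen. *Axin2* had 49 and 123 counts *in vivo*, 3 and 0 counts in 2D, 47 and 29 counts in D3 and 39 and 24 counts in D7. It was called higher than 2D in each other group (adjusted p = 2.87e-05, 0.0005 and 0.00093), and no fold is given because no 2D library exceeded 3 counts. *Csnk1a1*, *Gsk3b* and *Apc* differed by 0.04, -0.18 and -0.11 *in vivo* against 2D, with adjusted p-values of 0.84, 0.37 and 0.66.

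The genes whose pattern over the 8 libraries was most like that of *Epcam*, *Cdh1* and *Cdh4* were found by the root mean square difference of centred log2(CPM + 1) values among 9017 genes. For *Epcam* these were *Ebp* and *Cyp51*, which encode enzymes of cholesterol synthesis, and *Kctd12*, with distances of 0.075, 0.120 and 0.150 beside a median of 0.838 over all genes. *Ebp* had 11.1 and 9.87 CPM *in vivo*, 47.8 and 41.2 CPM in 2D, 33.5 and 32.6 CPM in D3, and 23.7 and 26.3 CPM in D7. For *Cdh1* they were *Clip1*, *Cnih4* and *Aff1*, with distances of 0.101, 0.104 and 0.106 beside a median of 0.796. For *Cdh4* they were *Penk*, *Pth* and *Plgrkt*, with distances of 0.332, 0.568 and 0.575 beside a median of 1.92. The *Cdh4* pattern includes the *in vivo* level for which the gene was chosen, so genes near it were bound to be high *in vivo* and low in culture. *Penk* had 77.1 and 76.9 CPM *in vivo* and 0.989 to 8.81 CPM in the cultures, and *Pth*, the parathyroid hormone gene, had 68.6 and 49.4 CPM *in vivo* and 0.928 to 6.29 CPM in the cultures.

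The labelled cell type was checked against 8 TEC markers. Of these, 7 had more than 3 counts in every library, with *Psmb11* the exception. The sum of the 8 was 6276 and 6707 CPM *in vivo*, 6517 and 5949 CPM in 2D, 779 and 671 CPM in D3 organoids, and 1277 and 1326 CPM in D7 organoids. *In vivo* and 2D had near-equal sums from different genes. *Foxn1*, a transcription factor of TECs, and the cortical genes *Prss16* and *Ly75* were 37.1-fold, 176-fold and 15.4-fold lower in 2D than *in vivo* with edgeR (adjusted p = 9.1e-11, 4.18e-14 and 6.23e-11), while *Krt8*, *Krt18* and *Krt5* were 2.28-fold, 1.93-fold and 2.68-fold higher in 2D and *Cldn4* was 111-fold higher (adjusted p = 1.47e-05, 2.56e-05, 2.94e-06 and 1.57e-13). *Psmb11*, the cortical proteasome gene, had 3 counts in each 2D library and 3 and 7 counts in the D3 libraries, against 3006 and 3942 counts *in vivo* and 858 and 570 counts in D7. Sums of 7 endothelial, 5 erythroid and 6 myeloid markers were at most 5.22, 12.0 and 12.5 CPM in any library, with *Tie1* and *Cldn5* at 0 throughout. The part of these differences in makeup in the members' values was not tested.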

How the data were processed

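RNA of 8 bulk TEC libraries was read by QuantSeq, a 3′ end method that primes on the poly(A) tail. Alignment was to GRCm39 with STAR, and the authors deposited raw counts of reads per gene, which are neither scaled nor filtered. The strand used in counting and the handling of reads with several matches are not given in the sources used here. Libraries held 5084715 to 7612532 counts, of which 22.7% to 29.4% fell on ribosomal RNA genes, and 16748 to 19943 genes had at least 1 count. Replicates differed by more than counting noise (chi-square per degree of freedom 6.82 to 8.70).

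A GENCODE annotation of GRCm39 gave symbols and positions for 56236 of 56923 genes and left 687 unmatched. Genes that overlap a member and are in the count files had at most 5 counts in any library, except *Ulk4* on the strand opposite *Ctnnb1*, with 0 to 64. The filter on low counts required 1 CPM or more in 3 or more libraries. TMM factors were 0.880 to 1.09. A single edgeR 4.0.16 model (R 4.3.3) of the 8 libraries gave the 6 comparisons, with Benjamini-Hochberg adjustment over 14504 genes and calls at 0.05. The study's own tool, limma-voom (here limma 3.58.1), was an alternative, as were DESeq2 1.42.0, other scalings, other filters, a replicate block, models of 4 libraries, and the omission of each library. The code was tested on simulated counts.

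The members and the gene lists were chosen with earlier results of these data known. From each pathway list the text names the 3 tested genes with the highest mean CPM. It also names those whose group means span more than 3 log2 units with at least 10 CPM in both libraries of a group. It says where another gene was chosen after its values were seen. The genes most like *Epcam*, *Cdh1* and *Cdh4* were the nearest 3 among genes with a mean of at least 10 CPM. Promoter sequences came from RefSeq (GRCm38.p6). Protein sequences were not used here, and 2 genes of the lists are not reported here.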

Additional observations from a re-analysis of the deposited data

How the results depend on the processing

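Each member's difference in each comparison (54 values) and the counts of calls were recomputed under 17 alternative settings, 9 of another scaling, filter, test or model and 8 with a library left out. Of 909 recomputed values, 856 kept their direction and their side of the threshold, 32 lost the threshold, 10 passed it and 10 changed sign. None of the sign changes was in a call. *Ctnnb1* *in vivo* against 2D was 0.071 without normalization, beside -0.11. *Cdh6* in D7 against 2D was 0.17 without normalization, 0.021 with a mean CPM of at least 10, 0.18 without 2D replicate 2 and 0.027 without D7 replicate 2, and its values with a library left out ranged from -0.25 to 0.18. *Cdh6* in D3 against 2D was -0.20 without 2D replicate 1 and -0.086 without D3 replicate 2, in a range of -0.20 to 0.23, and in D7 against D3 it was 0.022 without D7 replicate 2, in a range of -0.15 to 0.022. *Cdh1* in D7 against D3 was -0.021 without D3 replicate 2 and -0.014 without D7 replicate 2, in a range of -0.021 to 0.15. Without normalization the untested *Cdh4* value *in vivo* against 2D was 4.86, beside 4.68. The cause of these changes was not tested.

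With a library left out, the members called ranged from 5 to 5 for *in vivo* against 2D, 4 to 6 for *in vivo* against D7, 3 to 5 for *in vivo* against D3, 5 to 6 for D7 against 2D, 5 to 7 for D3 against 2D and 3 to 5 for D7 against D3. The lowest for *in vivo* against D3 was without D3 replicate 1, the lowest for D3 against 2D without 2D replicate 1, and the highest for D7 against D3 without D3 replicate 2. All genes called ranged from 3016 to 5030 for *in vivo* against D7, lowest without D7 replicate 2 and beside 5042 with all libraries, and from 1183 to 3418 for D7 against D3, at 1183 without D7 replicate 2 and 1660 without D3 replicate 1, beside 3012. With a library left out, its group is represented by a lone sample that is assumed to vary like the other groups. *Cdh2* was not tested with a mean CPM of at least 10, and *Cdh6* was not tested in the 4 libraries of *in vivo* TECs and another group.

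Replicate numbers are shared between groups, but the correlation of the replicate differences between groups was 0.013 to 0.114, so the numbers were not shown to pair the samples. With a replicate block, *Epcam* in D7 against D3 had an adjusted p of 0.032 in place of 0.051, which brought the members called there from 3 to 4, and no other member call changed. All genes called with the block were 6366 for *in vivo* against 2D and 3587 for D7 against D3. At these depths, 3 counts or fewer in a library cannot be told from absence.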
